A study of Mus musculus with 17 samples.

Results

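The genes described here encode the subunits of the mitochondrial respiratory chain and ATP synthase that are carried on nuclear chromosomes. They were taken from the gene table by symbol (Nduf with a, ab, b, c, s or v and a number, Sdha to Sdhd, Uqcr, Cyc1, Cox4 to Cox8 and Atp5), keeping protein-coding genes and leaving out Cox6b1, Cox6b2, Cox7a1, Cox7a2, Cox8a and Cox8c. This gave 81 genes of the 24594 in the table: 39 of complex I, 4 of complex II, 9 of complex III, 12 of complex IV and 17 of complex V. Ndufb1 and Ndufb4b were not analysed here. RNA levels had been measured by sequencing in germ cells sorted by flow cytometry from mouse testis. Each of 5 stages had 3 libraries. Spermatocytes were sorted as a leptotene and zygotene pool (LZ) and as a pachytene and diplotene pool (PD), and spermatids as round cells (RS) and as elongating cells of an early (EES) or late (LES) step. All came from wild-type C57BL/6JRj males of 3 months, digested with collagenase and trypsin and stained with Hoechst 33342 and SYTO 16, with no other treatment. Single libraries stained with Hoechst 33342 alone held round spermatids that the title gives as 23 days post partum (RS23) and elongating spermatids sorted for Prm1-EGFP (PrmES), although their age and genotype labels read 3 months and wild type. Whether the libraries of a stage came from different animals is not stated in the sources used, and the spread that the p-values rest on may be technical.

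The respiratory chain passes electrons from NADH (complex I) and succinate (complex II) through ubiquinone, complex III and cytochrome c to oxygen at complex IV. Complexes I, III and IV pump protons across the inner mitochondrial membrane, and complex V, the ATP synthase, uses the gradient. Complex II is encoded by nuclear genes alone, whereas the other complexes also hold subunits made from mitochondrial DNA. Spermatocytes are known to rely largely on oxidative metabolism, and spermatids shed most of their cytoplasm while the remaining mitochondria gather in the midpiece of the sperm tail. Some subunits have testis forms, and genes on the X chromosome are silenced in pachytene spermatocytes.

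Library totals ran from 90553570 to 159185303 reads, and levels are given in RPKM, which divides a gene's reads by its exon length and by the library total. Stage markers followed the labels in part. The 3 LZ libraries had 46.3 to 74.9 RPKM of Dmc1, a meiotic recombinase. The EES and LES libraries had 9452 to 28436 RPKM of Prm1, which packs sperm DNA. Dmc1 was also higher in RS than in PD and in EES than in RS, by log2 fold changes of 1.3 and 2.4. The spermatid genes Tnp1, Prm1 and Odf1 were lower in PD than in LZ, by log2 fold changes of −3.03, −3.42 and −2.59. Pou5f2, a spermatocyte gene, had 131, 121 and 141 RPKM in PD. Acrv1, of the acrosome, had 33.4, 26.1 and 35.7 RPKM in RS and 3.05, 95.2 and 8.14 RPKM in EES, so the second EES library was above RS. The third LZ library and the second EES library stood apart. Across genes, the third LZ library had a Spearman correlation of 0.690 to 0.714 with PD libraries, against 0.512 to 0.564 for the other LZ libraries. The second EES library had 0.788 to 0.822 with RS libraries, against 0.612 to 0.707 for the other EES libraries. In these sorted pools, fewer cells with a transcript and less of it per cell cannot be told apart.

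The summed level of the 81 genes was highest in PD. It was 2266.5, 2040.4 and 2902.8 RPKM in the LZ libraries and 4496.7, 4031.5 and 3630.0 RPKM in the PD libraries. It was 3293.0, 3412.3 and 3118.8 RPKM in RS, 1120.4, 1725.5 and 1121.5 RPKM in EES and 1217.3, 1068.3 and 1207.8 RPKM in LES. All 3 PD libraries were above every library of the other stages, and the EES and LES libraries overlapped each other and lay below every LZ library. Of the 81 genes, 43 had their highest stage mean in PD, 18 in LZ, 15 in RS, 2 in EES and 3 in LES. The genes took 0.174% to 0.731% of all reads of a library.

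**Figure D1:**
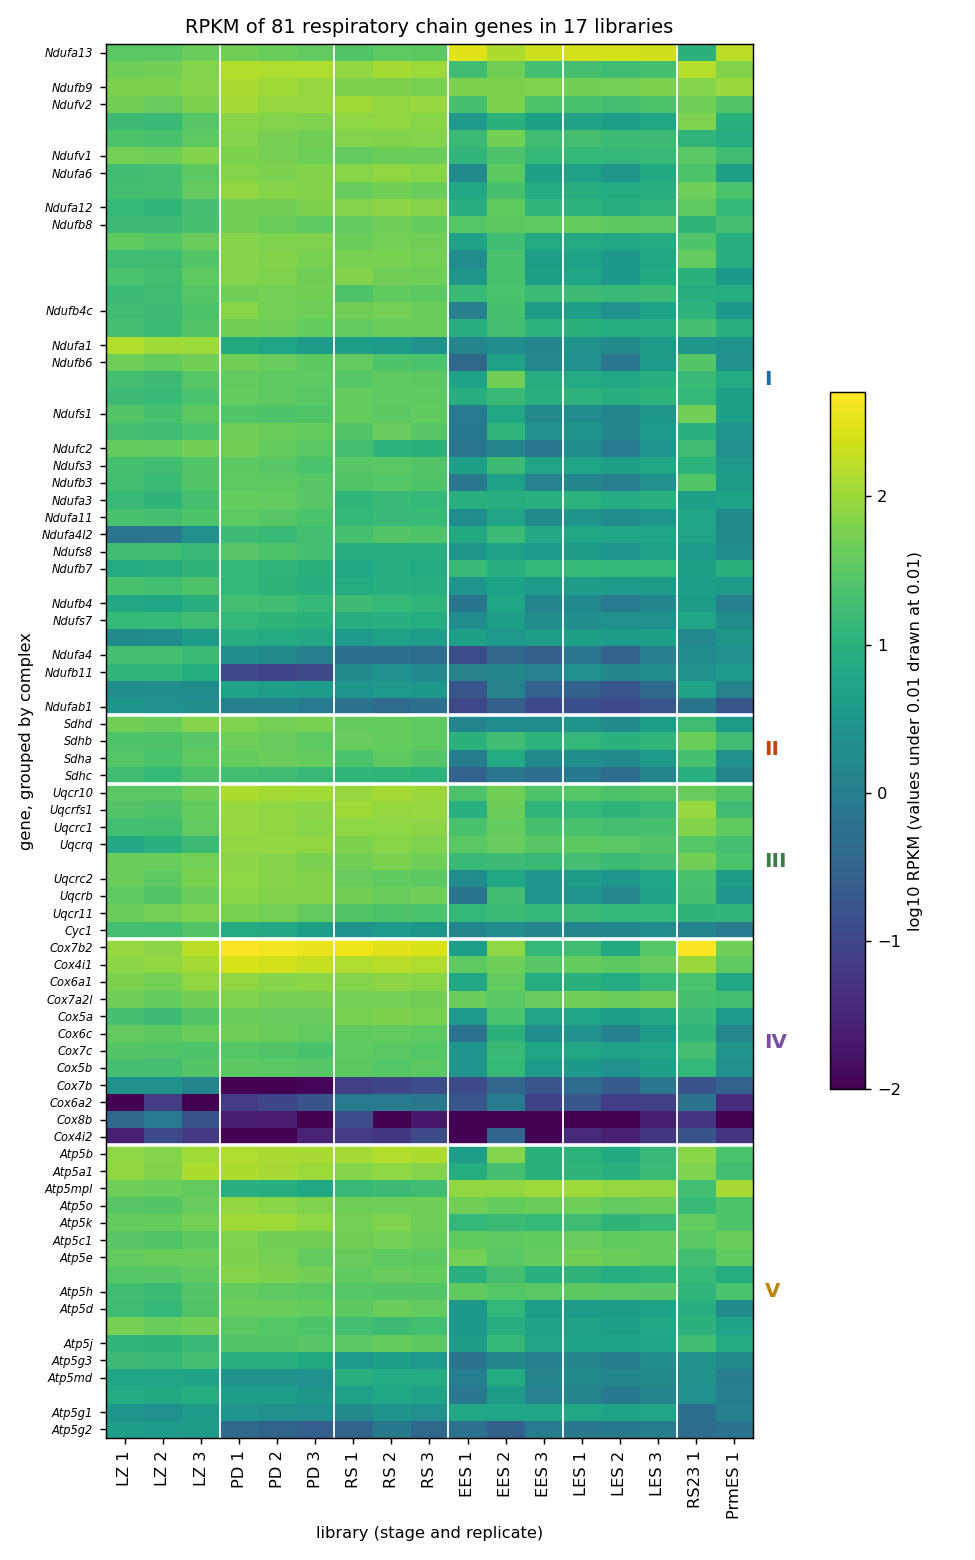
Levels of the 81 genes (rows, grouped by complex and ordered by mean level, with the genes named in the text labelled) in the 17 libraries (columns), coloured by log10 RPKM. Most rows are brightest in PD and RS and darkest in EES and LES, and Ndufa13 and Atp5mpl are brightest in EES and LES.

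In each complex the median level was highest in PD, next in RS, lower in LZ and lowest in EES and LES. The median level over complex I genes was 21.1 ± 4.81 in LZ, 38.8 ± 6.59 in PD, 31.4 ± 2.68 in RS, 7.63 ± 6.47 in EES and 5.27 ± 1.26 in LES (RPKM, mean ± SD over libraries, n = 3). For complex II it was 27.8 ± 4.27 in LZ, 40.1 ± 3.07 in PD, 32.9 ± 3.12 in RS, 2.58 ± 1.91 in EES and 2.68 ± 1.11 in LES. Complex III had the highest medians, at 33.9 ± 8.59 in LZ, 71.5 ± 7.2 in PD, 52.3 ± 6.79 in RS, 15.2 ± 2.84 in EES and 14.6 ± 1.62 in LES. In every PD library the complex III median was the value of Uqcrc2, whose exons overlap those of Pdzd9 on the other strand. An even spread of Pdzd9 reads over its exons would put 25.6 to 32.2 RPKM on Uqcrc2 in PD, of 65.2 to 79.3 RPKM measured. The part of Pdzd9 reads in this median was not tested. For complex IV the medians were 24.8 ± 2.22 in LZ, 36.2 ± 2.47 in PD, 34.3 ± 1.55 in RS, 7.41 ± 6.46 in EES and 4.26 ± 0.952 in LES. For complex V they were 29.2 ± 3.06 in LZ, 34.9 ± 3.7 in PD, 32.8 ± 1.55 in RS, 10.6 ± 4.72 in EES and 9.61 ± 2.16 in LES. The PD medians of complexes I to IV lay above those of every LZ library, and for complex V PD 3 (31.5 RPKM) was below LZ 3 (32.3 RPKM).

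**Figure D2:**
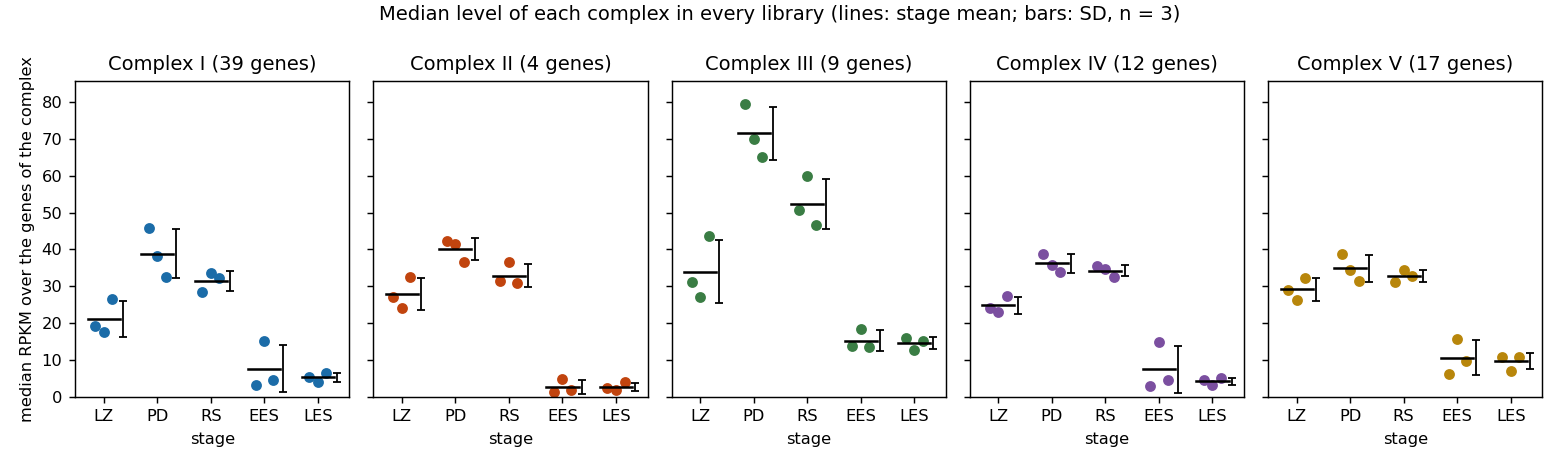
Median RPKM over the genes of each complex in every library of the 5 stages (points), with the stage mean (line) and SD (bar, n = 3). Complex III is highest in PD at 71.5 ± 7.20 RPKM, and complex II is lowest in EES at 2.58 ± 1.91 RPKM. In PD the complex III median is the value of Uqcrc2, whose exons overlap those of Pdzd9.

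The make-up of the summed level also differed between stages. Complex II held 5.31% of it in LZ, 3.81% in PD, 3.53% in RS, 1.4% in EES and 1.57% in LES. Complex IV held 17.4%, 22.8%, 22.7%, 11.2% and 11.03% in the same order, and complex V 22.5%, 18.3%, 17.7%, 26.5% and 27.5%. Single genes carried much of this. Cox7b2 made up 45.1% ± 0.978 of the complex IV sum in PD (SD, n = 3). This sum and the shares above lack the 6 complex IV isoforms left out by the choice of genes. Those 6 summed to 746 to 806 RPKM in the PD libraries, against 824 to 1025 RPKM for the complex IV genes used. Ndufa13 made up 42.5% ± 3.85 of the complex I sum in LES, against 2.33% ± 0.289 in RS. Its exons overlap those of Tssk6 on the other strand, and reads of these genes cannot be told apart. An even spread of Tssk6 reads over its exons would put 121 to 138 RPKM on Ndufa13 in LES, of 225 to 248 RPKM measured. Atp5mpl made up 28.6% ± 2.41 of the complex V sum in LES, against 2.87% ± 0.374 in RS.

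For the tests, 78 of the 81 genes reached 1 RPKM in at least 3 of the 15 stage libraries. Cox4i2, Cox6a2 and Cox8b did not. These are known as the lung, the muscle and heart, and the muscle and brown fat forms of their subunits. The highest values of the untested genes in the 15 libraries were 0.340 RPKM for Cox4i2, 0.875 RPKM for Cox6a2 and 0.851 RPKM for Cox8b. Rose and fell are used where the change was at least 2-fold and limma's p, after Benjamini-Hochberg adjustment over 13260 genes, was under 0.05. Over the 5 stages, 72 of the 78 differed by limma's F test with at least a 2-fold range of stage means, and 97.2% of all tested genes did so. The other 6 were Ndufb7, Ndufb9, Cox7a2l, Atp5c1, Atp5e and Atp5h. Atp5e, the epsilon subunit, ranged least, with 40.8 ± 3.12 in LZ, 50.2 ± 11.5 in PD, 35.8 ± 3.81 in RS, 40.8 ± 10.7 in EES and 43.5 ± 6.2 in LES (RPKM, SD, n = 3).

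Between LZ and PD, 23 genes of the chain rose and 8 fell in PD. That was 29.5% and 10.3% of the 78, against 25.5% and 35.8% of all tested genes. Their median log2 change was 0.70, while the median of all genes was −0.36. By complex, 13 genes rose and 4 fell of 39 in complex I (median 0.94), and none of the 4 genes of complex II passed (median 0.30). In complex III 4 rose and 1 fell of 9 (median 0.98), in complex IV 2 rose and 1 fell of 9 (median 0.36), and in complex V 4 rose and 2 fell of 17 (median 0.38). The direction of these medians depended on the scaling. Quantile normalization, which gives every library the same distribution of levels, gave 0.09 for complex I, −0.71 for complex II, −0.11 for complex III, −1.03 for complex IV and −0.75 for complex V, with 9 genes up and 22 down. Scaling to reads in genes gave −0.14, −0.07 and −0.05 for complexes II, IV and V, with 9 genes up and 13 down. With the libraries centred on their medians 43 of the 78 genes rose and 7 fell. The median of all genes was 0.09 with this centring, −0.03 with quantile normalization and −0.79 with scaling to reads in genes. The shares of all genes that passed under these settings were not counted. Without the second LZ library 16 genes rose, and without the third LZ and second EES libraries 33 did.

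**Figure D3:**
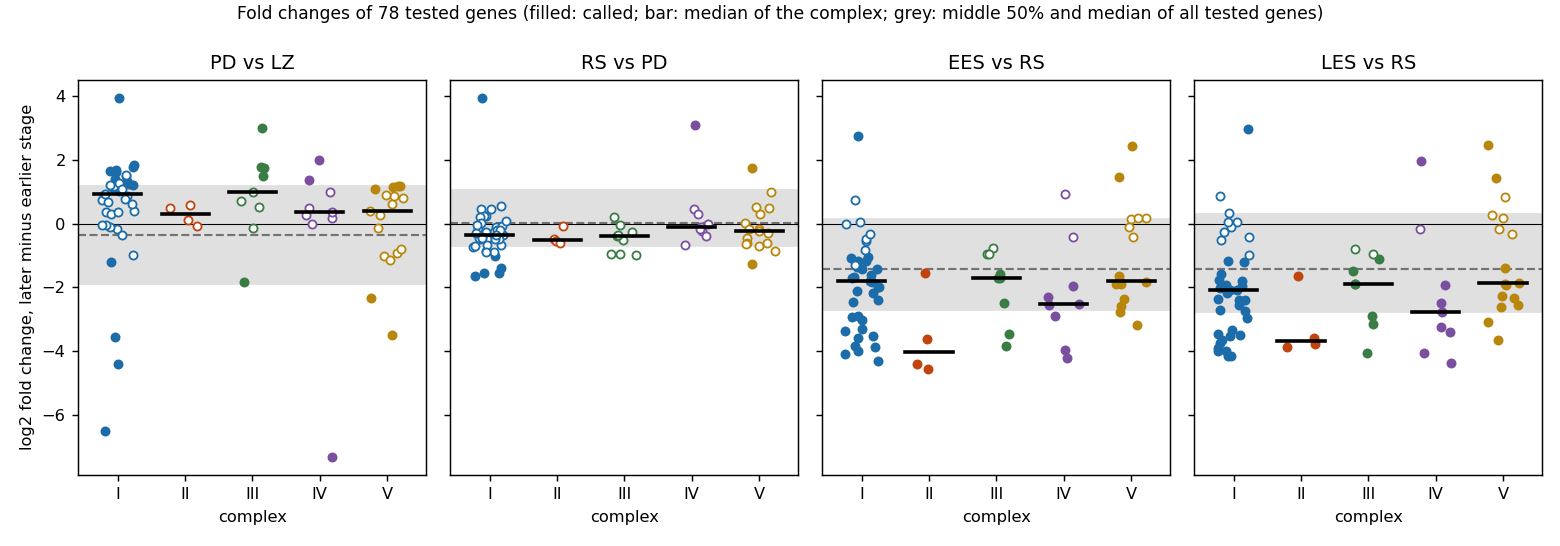
Log2 fold change (later minus earlier stage) of each of the 78 tested genes by complex in 4 comparisons, with filled points for genes that passed, a bar for the median of the complex, and grey for the middle 50% and median of all tested genes. In EES vs RS the median of complex II is −4.01, against −1.81 in complex I.

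In complex I, the core subunits carry the flavin and iron-sulfur centres. Ndufv2, of the NADH-oxidising module, rose to 100.2 ± 13.5 RPKM in PD, against 50.1 ± 9.6 RPKM in LZ (SD, n = 3; log2 fold change 1.01 ± 0.32, limma adjusted p = 0.0131). The direction for Ndufv2 flipped with quantile normalization (−0.32). Among core genes that did not pass, Ndufv1, which binds NADH, had a log2 fold change of −0.04 ± 0.24, and Ndufs1, the largest subunit, had −0.03 ± 0.53. Of the 32 complex I genes outside the core, 11 rose. They are largely those of the supernumerary subunits, which surround the core, but also include Ndufa4, Ndufa4l2 and Ndufb4c, described below. Ndufa12 had 49.3, 49.01 and 59.4 RPKM in PD, against 13.8, 12.1 and 20.9 RPKM in LZ (log2 fold change 1.79 ± 0.40, limma adjusted p = 0.00125). Ndufab1, the mitochondrial acyl carrier protein and the lowest gene of the complex, fell to 1.06, 1.15 and 0.826 RPKM in PD, against 2.68, 2.27 and 2.06 RPKM in LZ.

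In complex III 4 genes rose in PD, among them the second largest rise of the 78 genes. Uqcrq, a small subunit beside cytochrome b, had 84.2, 84.9 and 81.7 RPKM in the PD libraries, against 6.86, 9.57 and 16.9 RPKM in LZ (log2 fold change 3.01 ± 0.27, limma adjusted p = 6.38e-07). Its PD libraries lay close together, and the third LZ library was the highest of LZ. Uqcr10, another small subunit, rose to 121 ± 11.2 RPKM in PD, against 36.9 ± 9.76 RPKM in LZ (SD, n = 3; log2 fold change 1.74 ± 0.27, limma adjusted p = 6.65e-05). The core protein gene Uqcrc1 rose to 82.02 ± 9.39 RPKM, against 25.1 ± 10.3 RPKM in LZ, and the Rieske iron-sulfur protein gene Uqcrfs1 to 83.8 ± 8.19 RPKM, against 30.5 ± 7.39 RPKM. Cyc1, the cytochrome c1 that hands electrons to cytochrome c, moved the other way. It had 7.42, 6.82 and 4.26 RPKM in PD, against 20.3, 18.6 and 26.2 RPKM in LZ (log2 fold change −1.84 ± 0.26, limma adjusted p = 2.81e-05), and every PD library lay below every LZ library. Later means of Cyc1 were 3.02 ± 0.277 RPKM in RS, 1.56 ± 0.251 RPKM in EES and 1.56 ± 0.341 RPKM in LES (SD, n = 3).

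In complex IV, Cox4i1, the widespread form of a regulatory subunit, rose to 260.4, 235 and 197 RPKM in PD, against 76.2, 81.8 and 115 RPKM in LZ (log2 fold change 1.36 ± 0.22, limma adjusted p = 9.77e-05), a direction that flipped with quantile normalization (−0.07). Cox5a, Cox5b, Cox6a1, Cox6c and Cox7c did not pass, with log2 fold changes of −0.03 to 1.00. Cox7a2l, known as a factor that joins complexes III and IV into supercomplexes, varied least of complex IV. It was at 44.4 ± 4.6 in LZ, 57.01 ± 3.55 in PD, 50.8 ± 2.93 in RS, 38.4 ± 5.7 in EES and 45.5 ± 2.05 in LES (RPKM, SD, n = 3).

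In complex V, the catalytic head genes Atp5a1 (alpha) and Atp5b (beta) did not pass in PD, with log2 fold changes of 0.38 ± 0.34 and 0.61 ± 0.69. Atp5d, the delta subunit of the central stalk, rose to 42.3 ± 2.83 RPKM in PD, against 19.3 ± 6.77 RPKM in LZ (SD, n = 3; log2 fold change 1.19 ± 0.42, limma adjusted p = 0.0219). Atp5k, the membrane subunit e, rose to 97.3 ± 14.7 RPKM, against 43.3 ± 7.75 RPKM in LZ (log2 fold change 1.17 ± 0.22, limma adjusted p = 0.000352), and its direction flipped with quantile normalization (−0.04). Atp5o, which holds the peripheral stalk to the head, rose to 72.9 ± 11.97 RPKM, against 32.8 ± 6.11 RPKM in LZ. Of its exon bases 47.9% overlap other annotated genes, so part of its reads may be counted for either.

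The c subunit of the ATP synthase rotor is made from the genes Atp5g1, Atp5g2 and Atp5g3, whose mature products are the same protein. Atp5g3 was the highest of them in LZ, PD and RS, with 17.2 ± 2.54, 9.03 ± 1.53 and 3.68 ± 0.334 RPKM (SD, n = 3). Atp5g2 fell to 0.417, 0.332 and 0.256 RPKM in PD, against 4.25, 3.47 and 3.65 RPKM in LZ (log2 fold change −3.48 ± 0.39, limma adjusted p = 4.07e-06). Atp5g3 fell later, to 3.52, 4.06 and 3.45 RPKM in RS, against 9.99, 9.84 and 7.26 RPKM in PD (log2 fold change −1.28 ± 0.33, limma adjusted p = 0.00559), and was at 1.09 ± 0.414 RPKM in EES. Atp5g1 rose in EES and was the highest of the c genes in every EES and LES library. Its values are given with the genes of elongating spermatids. Of the 50-base stretches of Atp5g2, 38.3% are also in other genes or pseudogenes, against 11.1% for Atp5g1 and 0% for Atp5g3.

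Cells of other types moved with the comparison of PD and LZ. The 11 Sertoli cell markers summed to 1.35 to 2.24 RPKM in PD libraries, against 51.3 to 98.9 RPKM in LZ, and all 6 that were tested fell. Fshr was listed at 0 in the first and second PD libraries, and Rhox5 in the second. The 6 spermatogonial markers summed to 0.862 to 0.978 RPKM in PD, against 20.4 to 30.04 RPKM in LZ. Of the 4 that were tested, 3 fell and 1 rose. Of the few other markers tested, 1 of 2 Leydig, 1 of 1 myoid and 2 of 2 erythroid genes fell. The macrophage and endothelial genes did not pass. The spermatid markers Tnp1, Prm1 and Odf1 fell too (log2 fold changes −3.03, −3.42 and −2.59), and Acrv1 did not pass. The part of these cells in the results was not tested.

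The 3 X-linked genes of the chain fell in PD. Ndufa1 (chrX:37187588-37191238, positions here of GRCm38.p6), a membrane-arm subunit of complex I, had 7.11, 5.93 and 3.98 RPKM in PD, against 146, 109 and 102 RPKM in LZ (log2 fold change −4.41 ± 0.32, limma adjusted p = 8.48e-08). Ndufb11 (chrX:20615326-20617619), also of the membrane arm, had 0.12, 0.08998 and 0.12 RPKM in PD, against 12.6, 12.6 and 8.1 RPKM in LZ (log2 fold change −6.51 ± 0.27, limma adjusted p = 1.94e-09). Cox7b (chrX:106015700-106022450), the widespread form of subunit 7B of complex IV, had 0, 0 and 0.012 RPKM in PD, against 2.56, 2.55 and 1.35 RPKM in LZ. In all PD libraries together it had 2 reads, against 774 in LZ, a ratio, scaled to library totals, of 0.00207 (95% exact interval 0.000251 to 0.00751, counting error only). The fitted change was log2 fold change −7.32 ± 0.52, limma adjusted p = 7.57e-08.

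After PD the X-linked genes differed in course. In RS Ndufb11 had 1.62, 2.39 and 1.56 RPKM (log2 fold change 3.94 ± 0.27, limma adjusted p = 2.14e-07), and in RS Cox7b had 0.0763, 0.0956 and 0.137 RPKM (log2 fold change 3.08 ± 0.52, limma adjusted p = 0.00026). Cox7b counted 48 reads in RS, against 2 in PD, a ratio of 23.5 with a counting interval of 6.15 to 199. Ndufa1 had 4.11, 3.72 and 2.61 RPKM in RS (log2 fold change −0.69 ± 0.32, limma adjusted p = 0.0953), so its change did not pass. In LES the levels were 2.66 ± 0.977 RPKM for Ndufa1, 1.9 ± 0.436 RPKM for Ndufb11 and 0.467 ± 0.248 RPKM for Cox7b (SD, n = 3), all below every LZ library. Cox7b rose in LES relative to RS (log2 fold change 1.97 ± 0.52, limma adjusted p = 0.00338). In the order of the libraries, Cox7b had 0.448, 0.229 and 0.724 RPKM in LES, and the Sertoli markers summed to 22.2, 10.8 and 39.4 RPKM there, against 3.97 to 4.56 RPKM in RS. The libraries had the same order for both, and also for other genes such as Cox7b2 (17.5, 7.12 and 28.6 RPKM). The part of Sertoli cells in the rise of Cox7b was not tested. Ndufa1 has no 50-base stretch in other genes, and 17.5% of those of Ndufb11 are in Rbm10 or Gm6444. Of the 908 exon bases of Ndufb11 117 overlap Rbm10 on the other strand, which was at 4.74 ± 0.932 RPKM in RS, against 0.0806 ± 0.0560 RPKM in PD (SD, n = 3), and the part of Rbm10 reads in the rise of Ndufb11 was not tested.

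Cox7b2 (chr5:71442823-71548205) is an autosomal relative of Cox7b known for its testis expression. It was the highest gene of the chain over the 15 stage libraries, at a mean of 179 RPKM. The coding sequences, from GENCODE M21 transcripts on GRCm38 without the stop codon, are shown because the pair differs in level so widely, with bases that differ from the partner, or have none in the alignment, in capitals.
Cox7b2 (chr5:71442968-71443213, minus strand): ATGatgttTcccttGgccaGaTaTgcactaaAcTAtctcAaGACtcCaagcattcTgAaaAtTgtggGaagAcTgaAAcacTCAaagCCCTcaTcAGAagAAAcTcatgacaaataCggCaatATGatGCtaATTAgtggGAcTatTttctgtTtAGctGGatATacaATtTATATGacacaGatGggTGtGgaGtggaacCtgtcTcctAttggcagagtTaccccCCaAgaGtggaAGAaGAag
Cox7b (chrX:106015831-106021820, plus strand): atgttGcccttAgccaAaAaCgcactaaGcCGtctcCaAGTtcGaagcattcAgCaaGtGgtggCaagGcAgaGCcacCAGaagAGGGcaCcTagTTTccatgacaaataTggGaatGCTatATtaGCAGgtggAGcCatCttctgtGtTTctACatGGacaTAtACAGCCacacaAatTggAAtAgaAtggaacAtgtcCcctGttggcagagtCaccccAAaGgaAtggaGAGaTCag
The sequences are 65.4% identical over 240 aligned bases. The Cox7b2 coding sequence lies in 1 exon, against 3 exons for Cox7b. No 50-base stretch of Cox7b2 is in another gene, and 0.5% of those of Cox7b are.

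Cox7b2 had 469.9, 417 and 362 RPKM in the PD libraries, against 89.5, 75.8 and 163 RPKM in LZ. The groups did not overlap, and the third LZ library was the highest of LZ. The change passed narrowly (log2 fold change 2.0 ± 0.79, limma adjusted p = 0.0377) and did not pass without the filter on low genes, with scaling to reads in genes, with quantile normalization, or without the first or second LZ library or any PD library, where limma gave log2 fold changes of 0.61 to 2.10 and adjusted p of 0.0636 to 0.29. In RS it had 385, 304 and 274 RPKM, and it fell to 4.4, 80.6 and 13.6 RPKM in EES (log2 fold change −4.23 ± 0.79, limma adjusted p = 0.000303) and 17.5, 7.12 and 28.6 RPKM in LES. The EES libraries ranged widely, with the second far above the other two. Cox7b2 exceeded Cox7b in every library, by 29.8 to 121 times in LZ, by 2002 to 5039 times in RS and by 31.1 to 39.6 times in LES.

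**Figure D4:**
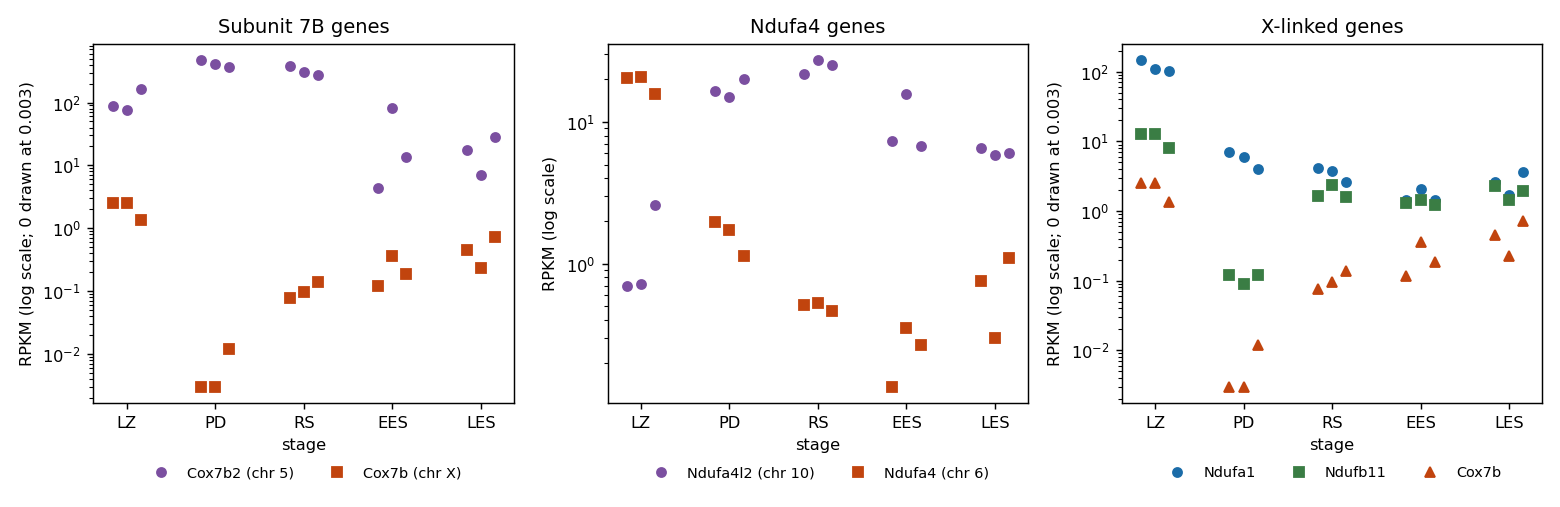
RPKM on a log axis in each library of the 5 stages for Cox7b2 and Cox7b (left), Ndufa4l2 and Ndufa4 (middle) and the 3 X-linked genes (right), with libraries at 0 drawn at 0.003. Cox7b is at 0 in 2 PD libraries, and Ndufa4l2 lies below Ndufa4 in LZ and above it in the later stages.

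The pair Ndufa4l2 and Ndufa4 changed places between LZ and PD. Ndufa4 is named for complex I and is now usually counted with complex IV, and Ndufa4l2 is its paralogue, known as a target of hypoxia signalling. Their coding sequences are shown in the same way.
Ndufa4l2 (chr10:127514982-127516496, plus strand): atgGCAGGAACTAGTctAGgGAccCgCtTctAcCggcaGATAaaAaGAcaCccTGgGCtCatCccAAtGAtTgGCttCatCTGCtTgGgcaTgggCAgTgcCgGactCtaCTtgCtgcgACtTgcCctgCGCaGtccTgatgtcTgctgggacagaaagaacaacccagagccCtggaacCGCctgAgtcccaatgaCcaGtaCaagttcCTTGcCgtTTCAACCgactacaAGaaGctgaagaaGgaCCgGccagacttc
Ndufa4 (chr6:11900538-11907365, minus strand): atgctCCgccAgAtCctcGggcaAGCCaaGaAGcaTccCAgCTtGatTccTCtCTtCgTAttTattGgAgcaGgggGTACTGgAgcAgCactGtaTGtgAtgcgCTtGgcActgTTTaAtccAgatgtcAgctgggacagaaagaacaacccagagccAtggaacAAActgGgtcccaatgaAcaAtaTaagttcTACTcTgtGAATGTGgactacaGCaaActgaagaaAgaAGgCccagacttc
They are 68.2% identical over 242 aligned bases, and neither gene has a 50-base stretch in another gene. Ndufa4l2 (chr10:127509274-127517154) rose to 16.4, 14.9 and 20.1 RPKM in PD, against 0.692, 0.722 and 2.61 RPKM in LZ (log2 fold change 3.95 ± 0.44, limma adjusted p = 4.1e-06), the largest rise of the 78. Ndufa4 (chr6:11900372-11907450) fell to 1.98, 1.72 and 1.13 RPKM in PD, against 20.4, 20.5 and 15.7 RPKM in LZ (log2 fold change −3.57 ± 0.44, limma adjusted p = 8.94e-06). It fell again to 0.51, 0.525 and 0.464 RPKM in RS (log2 fold change −1.63 ± 0.44, limma adjusted p = 0.0077). The ratio of Ndufa4l2 to Ndufa4 was 0.0339 to 0.165 in LZ, 8.30 to 17.8 in PD and 42.8 to 54.5 in RS. In EES it was 25.3 to 53.7 and in LES 5.51 to 19.5. The authors' de novo gene models gave log2 differences of 3.95 for Ndufa4l2 and −3.57 for Ndufa4 between PD and LZ.

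Between PD and RS few genes of the chain changed. In RS 3 rose and 6 fell, or 3.8% and 7.7% of the 78, against 23.4% and 15.2% of all tested genes. The median changes of the complexes were −0.37, −0.52, −0.38, −0.11 and −0.23 from complex I to V, and the median of all genes was 0.02. Beside Ndufb11 and Cox7b, Atp5md, a small subunit that helps ATP synthases pair, rose to 9.49, 7.75 and 7.85 RPKM in RS, against 2.54, 2.55 and 2.4 RPKM in PD (log2 fold change 1.74 ± 0.53, limma adjusted p = 0.016). The falls beside Ndufa4 and Atp5g3 were in complex I. The core subunit gene Ndufs8 fell to 8.58, 8.52 and 8.41 RPKM in RS, against 29.996, 25.8 and 20.1 RPKM in PD (log2 fold change −1.55 ± 0.24, limma adjusted p = 0.000138). The authors' de novo model over Ndufs8 went the other way, with 13.4 ± 1.91 RPKM in RS, against 9.41 ± 0.955 RPKM in PD (SD, n = 3). This model also covers Aldh3b1, and 1291 of its 4799 exon bases are shared with Ndufs8. The part of Aldh3b1 in this difference was not tested. Ndufc2 fell to 19.6, 10.97 and 10.5 RPKM, against 47.2, 38.1 and 31.3 RPKM in PD (log2 fold change −1.54 ± 0.41, limma adjusted p = 0.00675). Ndufa3 and Ndufa11 fell as well, with log2 fold changes of −1.39 ± 0.23 and −1.01 ± 0.37. The number that fell was 13 with median centring, 15 with quantile normalization and 11 without the third PD library. The median of all genes was −0.22 with median centring and −0.26 with quantile normalization. The Sertoli markers summed to 3.97 to 4.56 RPKM in RS, against 1.35 to 2.24 RPKM in PD, and 1 of the 6 tested, Inha, rose. The spermatogonial markers summed to 1.74 to 2.16 RPKM in RS, against 0.862 to 0.978 RPKM in PD, and 2 of the 4 tested, Dmrt1 and Sohlh1, rose. The endothelial gene rose, 1 of 2 Leydig genes fell, and the myoid, macrophage and erythroid genes tested did not pass. The part of these cells in the changes was not tested.

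Between RS and EES most genes of the chain fell. In EES 57 fell and 3 rose, or 73.1% and 3.8% of the 78, against 54.9% and 15.8% of all tested genes. The median change was −1.82, while the median of all genes was −1.42. All genes of complex II fell (median −4.01), and 7 of 9 in complex IV did (median −2.52). The other counts were 30 down and 1 up of 39 in complex I (median −1.81), 6 down of 9 in complex III (median −1.69) and 10 down and 2 up of 17 in complex V (median −1.79). Relative to the median of all genes these were −0.39, −2.59, −0.27, −1.10 and −0.36 from complex I to V. Transcripts of sperm proteins took many reads here: Tnp1, which replaces histones, had 36638, 14671 and 31896 RPKM in EES, against 219, 352 and 530.3 RPKM in RS, and the part of this in the falls was not tested. With the libraries centred on their medians 27 genes fell and 14 rose, and the medians of the complexes were −0.36, −2.57, −0.25, −1.07 and −0.34 from complex I to V. The median of all genes was 0.025 with this centring. Without the third LZ and second EES libraries 61 fell and 3 rose. The Sertoli markers summed to 5.08 to 17.2 RPKM in EES, against 3.97 to 4.56 RPKM in RS, with 5 of 6 tested up and 1 down, and Fshr was listed at 0 in the second EES library and in RS 1 and RS 3. Both erythroid genes, the endothelial gene and 1 of 4 spermatogonial genes tested rose, and 1 of 2 Leydig genes, the myoid gene and the macrophage gene fell. The part of these cells in the falls was not tested.

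Complex II oxidises succinate with a flavoprotein (Sdha) and an iron-sulfur protein (Sdhb) held to the membrane by Sdhc and Sdhd. Sdha had 0.95, 7.6 and 1.68 RPKM in EES, against 23.9, 34.7 and 27.1 RPKM in RS (log2 fold change −3.61 ± 0.55, limma adjusted p = 6.27e-05). Sdhb had 10.4, 18.4 and 11.1 RPKM in EES, against 40.8, 38.3 and 34.8 RPKM in RS (log2 fold change −1.56 ± 0.23, limma adjusted p = 4.29e-05). Sdhb fell least of the 4, and no EES library reached an RS library for any of them. The anchor gene Sdhc (chr1:171129157-171150640) had 0.302, 0.727 and 0.526 RPKM in EES, against 12.5, 11.9 and 10.8 RPKM in RS (log2 fold change −4.56 ± 0.40, limma adjusted p = 5.77e-07). The other anchor gene, Sdhd (chr9:50596340-50603849), had 1.4, 1.9 and 1.94 RPKM in EES, against 38.7, 38.4 and 34.7 RPKM in RS (log2 fold change −4.42 ± 0.30, limma adjusted p = 1.42e-07). Sdhc and Sdhd had the largest falls of the 78, and both were under 2 RPKM in every EES library. For Sdha, Sdhb and Sdhc the second EES library was the highest of EES. In LES the 4 genes had log2 changes from RS of −3.86 to −1.66.

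In complex I the core genes described here fell in EES. Ndufs1 had 0.909, 6.31 and 1.61 RPKM in EES, against 39.04, 33.4 and 35.8 RPKM in RS (log2 fold change −4.09 ± 0.53, limma adjusted p = 1.46e-05). Ndufs3, Ndufs7, Ndufs8, Ndufv1 and Ndufv2 fell by less, with log2 fold changes of −2.0 ± 0.38, −1.82 ± 0.28, −1.16 ± 0.24, −1.36 ± 0.24 and −1.60 ± 0.32. With median centring the values for Ndufs8 and Ndufv1 turned to 0.29 and 0.09. Of the 32 complex I genes outside the core 23 fell. Ndufb3 had 0.767, 4.96 and 1.2 RPKM in EES, against 26.8, 28.3 and 25.1 RPKM in RS, and Ndufb6 had 0.369, 5.04 and 1.52 RPKM, against 37.7, 25.8 and 23.7 RPKM. Of the exon bases of Ndufb6 39.0% overlap Smim27 on the other strand. Of the 32, 8 did not pass. Ndufb9 had 60.5, 58.3 and 61.02 RPKM in EES, against 58.6, 58.2 and 57.4 RPKM in RS (log2 fold change 0.05 ± 0.18, limma adjusted p = 0.823), and Ndufb8 had a log2 fold change of −0.33 ± 0.20. For Ndufb9 the authors' de novo model, which also covers Gm49356, differed. It was at 9.96 ± 1.73 RPKM in EES, against 25.9 ± 0.882 RPKM in RS (SD, n = 3; log2 difference −1.39). Of the GENCODE M21 exon bases of Ndufb9 19.5% overlap Gm49356 on the same strand, so its course into EES is uncertain.

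Falls in complex III were largest for Uqcrb, which had 0.681, 18.5 and 2.82 RPKM in EES, against 50.6, 44.5 and 46.6 RPKM in RS (log2 fold change −3.84 ± 0.83, limma adjusted p = 0.000909). The second EES library was well above the others. Uqcrfs1 fell to 22.04 ± 19.3 RPKM in EES, against 97.6 ± 9.58 RPKM in RS (SD, n = 3; log2 fold change −2.49 ± 0.43, limma adjusted p = 0.000159), and Uqcrc1 had a log2 fold change of −1.57 ± 0.28. Uqcrc2, the other core protein, had 1.94, 6.24 and 2.97 RPKM in EES, against 41.1, 36.001 and 33.3 RPKM in RS (log2 fold change −3.47 ± 0.38, limma adjusted p = 3.55e-06). Of its exon bases 504 of 2552 overlap Pdzd9 on the other strand, which was at 19.4 ± 6.75 RPKM in EES, against 178 ± 16.6 RPKM in RS (SD, n = 3). An even spread of Pdzd9 reads over its exons would put 32.7 to 38.9 RPKM on Uqcrc2 in RS, of 33.3 to 41.1 RPKM measured, so the level of Uqcrc2 in RS cannot be told apart from that of Pdzd9. Uqcrq, Uqcr11 and Cyc1 did not pass, with log2 fold changes of −0.94 ± 0.27, −0.78 ± 0.21 and −0.95 ± 0.26.

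In complex IV the falls after Cox7b2 were led by Cox6c and Cox5a. Cox6c had 0.607, 10.5 and 1.89 RPKM in EES, against 36.4, 37.5 and 34.3 RPKM in RS (log2 fold change −3.97 ± 0.72, limma adjusted p = 0.000255), and Cox5a had 3.4, 23.8 and 5.59 RPKM, against 55.7, 60.3 and 56.01 RPKM (log2 fold change −2.90 ± 0.51, limma adjusted p = 0.0002). Cox5b, Cox6a1, Cox7c and Cox4i1 fell with log2 fold changes of −2.55 ± 0.47, −2.52 ± 0.50, −2.31 ± 0.42 and −1.97 ± 0.22. In complex V, Atp5b had 4.26, 66.8 and 10.5 RPKM in EES, against 116, 144 and 131 RPKM in RS (log2 fold change −3.17 ± 0.69, limma adjusted p = 0.001), and Atp5a1 had 8.02, 20.99 and 10.3 RPKM, against 69.4, 80.2 and 66.4 RPKM (log2 fold change −2.58 ± 0.34, limma adjusted p = 2.08e-05). Atp5d fell too (−2.76 ± 0.42), whereas Atp5c1 (gamma) and Atp5e (epsilon), its partners in the central stalk, did not pass (−0.41 ± 0.17 and 0.16 ± 0.23). Atp5c1 had 36.1, 34.9 and 36.3 RPKM in EES, against 47.8, 51.5 and 43.4 RPKM in RS.

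Ndufa13, Atp5mpl and Atp5g1 rose in EES. Atp5mpl (chr12:111961374-111967009), which encodes a small membrane subunit of the ATP synthase, had 86.5, 83.8 and 101 RPKM in EES, against 14.8, 16.5 and 18.5 RPKM in RS (log2 fold change 2.45 ± 0.19, limma adjusted p = 3e-07). It had already fallen in PD, to 9.65, 8.83 and 6.69 RPKM, against 45.4, 43.1 and 37.9 RPKM in LZ (log2 fold change −2.34 ± 0.19, limma adjusted p = 2.95e-07). Every EES and LES library lay above every library of the earlier stages. Its exons overlap no other annotated gene and share no 50-base stretch with one, and the authors' de novo model gave a log2 difference of 2.60 between EES and RS, with 519 of its 1271 bases on a model of the other strand. Atp5g1 (chr11:96072793-96075694) had 6.31, 5.81 and 5.83 RPKM in EES, against 1.66, 2.7 and 2.27 RPKM in RS (log2 fold change 1.46 ± 0.22, limma adjusted p = 5.13e-05). In LES Atp5mpl had 103, 89.7 and 82.4 RPKM and Atp5g1 6.27, 5.37 and 5.99 RPKM.

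Ndufa13 (chr8:69894163-69902558), a complex I subunit also known as GRIM-19, had 289.9, 134 and 223 RPKM in EES, against 26.3, 33.8 and 32.7 RPKM in RS (log2 fold change 2.74 ± 0.26, limma adjusted p = 1.28e-06). It was the highest gene of complex I over the 15 stage libraries. Of its 1251 exon bases 375 overlap Tssk6, a testis kinase gene on the other strand. Tssk6 had 562, 168 and 380.0 RPKM in EES, against 4.92, 4.81 and 5.65 RPKM in RS, and no source used here gives the strand setting of the counting. The EES libraries had the same order for Tssk6 and Ndufa13, and reads of these genes cannot be told apart. An even spread of Tssk6 reads over its exons would put 50.3 to 169 RPKM on Ndufa13 in EES and leave 83.5 to 121 RPKM, against 24.8 to 32.4 RPKM left in RS.

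**Figure D5:**
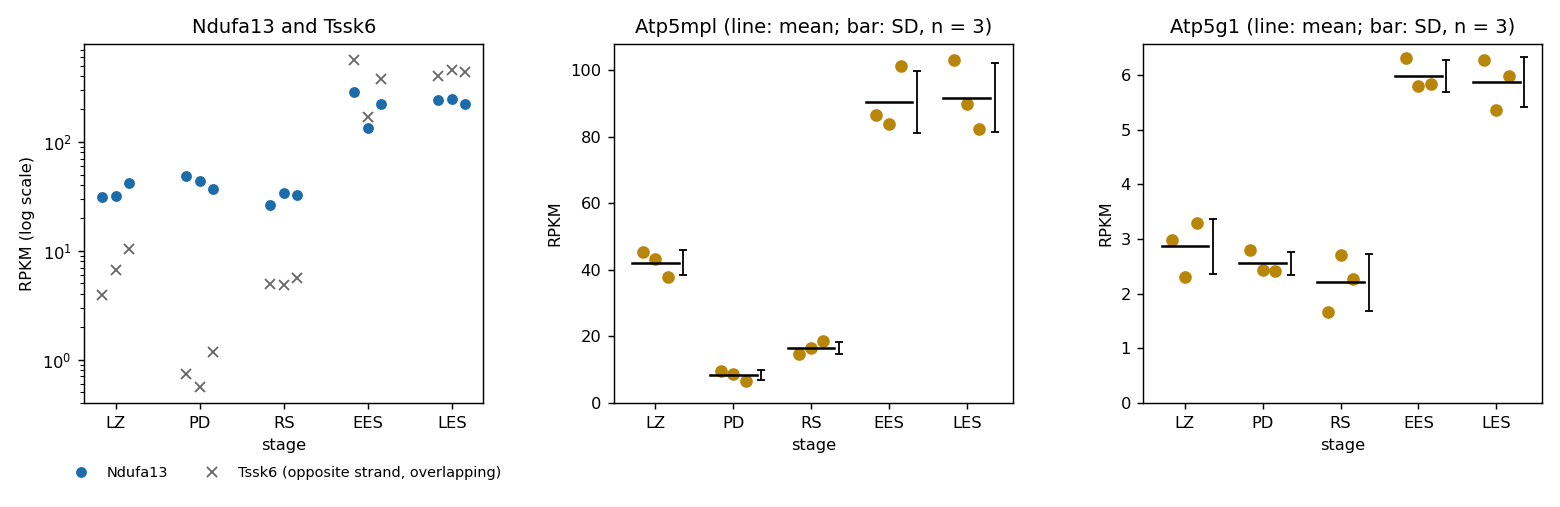
RPKM in each library of the 5 stages for Ndufa13 with the overlapping gene Tssk6 (left, log axis), Atp5mpl (middle) and Atp5g1 (right), with stage means and SD for the last 2 (n = 3). Ndufa13 and Tssk6 are both high in EES and LES, and Atp5mpl is at 90.5 ± 9.3 RPKM in EES, against 16.6 ± 1.84 RPKM in RS.

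No gene of the chain passed the test between LES and EES. None of the 78 rose or fell in LES by limma, and of all tested genes 0.00754% rose and 0% fell. At an unadjusted p under 0.05, 2 of the 78 differed by limma and 1 by voom, and voom gave no call after adjustment. By limma 6.93% of all tested genes reached that unadjusted p. The lowest adjusted p was that of Ndufa4, with 0.752, 0.298 and 1.1 RPKM in LES, against 0.136, 0.351 and 0.269 RPKM in EES (log2 fold change 1.38 ± 0.44, limma adjusted p = 0.374). Set against the RS libraries that also entered the comparison with EES, 57 of the 78 fell and 4 rose in LES, or 73.1% and 5.1%, and of all tested genes 55.4% fell and 17.4% rose. The median changes in LES were −2.09, −3.68, −1.90, −2.77 and −1.88 from complex I to V. Cox7b2, Ndufs1 and Ndufb3 had the largest falls, and Ndufa6 had 4.92, 3.04 and 7.16 RPKM in LES, against 72.4, 82.6 and 73.4 RPKM in RS (log2 fold change −4.0 ± 0.75, limma adjusted p = 0.000289). Atp5j fell in LES too (−2.62 ± 0.34). With the libraries centred on their medians 30 genes fell and 18 rose in LES. The median of all genes was −1.43 before centring and 0.115 after it. With quantile normalization 10 rose. The Sertoli markers summed to 10.8 to 39.4 RPKM in LES, against 3.97 to 4.56 RPKM in RS, with 5 of 6 tested up and none down. Both erythroid genes and the endothelial gene tested rose, the myoid gene fell, and the Leydig, macrophage and spermatogonial genes tested did not pass. The part of these cells in the differences was not tested.

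Of the 23 genes that rose in PD, 17 fell in EES, none rose in EES and 6 did not pass. Of the 8 that fell in PD, 3 fell again in EES, 1 rose and 4 did not pass. Of the 47 that did not pass in PD, 37 fell in EES. Whatever their course in PD, 73.1% of the tested genes of the chain fell in EES, against 54.9% of all tested genes. The shares of all tested genes with each of these courses were not counted. Whether a rise in PD went with a fall in EES was not tested. Ndufb4c, which is protein-coding in RefSeq and a processed pseudogene in GENCODE M21, shares sequence with Ndufb4, so their levels (47.3 ± 5.07 RPKM for Ndufb4c and 14.2 ± 2.56 RPKM for Ndufb4 in RS; SD, n = 3) are uncertain. Of the 80 genes matched to GENCODE M21, 19 share over 10% of their 50-base stretches with other genes.

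The single libraries were compared by value alone. The summed level was 2247.5 RPKM in RS23, below the RS libraries (3118.8 to 3412.3 RPKM), and 1197.4 RPKM in PrmES, within the EES and LES range. The complex I median was 10.9 RPKM in RS23, against 28.4 to 33.6 RPKM in RS. Cox7b2 had 461 RPKM in RS23, above the RS libraries, and Ndufa13 had 10.3 RPKM, below them. In PrmES, Atp5mpl had 122.5 RPKM and Ndufa13 161 RPKM, both far above the RS libraries. Ndufa4l2 had 1.68 RPKM in PrmES and Ndufa4 2.32 RPKM, so Ndufa4 was the higher of the pair there, unlike in EES and LES. These libraries differ from the others in sorting and in the prefix of their column names, so stage and preparation cannot be told apart.

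Genes that build or serve the chain were counted in the same way, beside 25.5% up and 35.8% down of all tested genes in PD and 15.8% up and 54.9% down in EES. Of 46 tested assembly factors 10 rose and 19 fell in PD, and 30 fell and none rose in EES. Ndufaf3, a complex I assembly factor, rose in PD (log2 fold change 3.09 ± 0.35), and Cox15, which makes heme A for complex IV, fell (−4.09 ± 0.49). Coa3, of complex IV assembly, fell in EES (−4.73 ± 0.36). Of the 6 isoforms left out by the choice of genes 5 were tested, of which 3 rose and 2 fell in PD and 4 fell in EES. Of 77 tested mitochondrial ribosomal protein genes 16 rose and 10 fell in PD, and 3 rose and 54 fell in EES. Beside the same shares of all tested genes, 4 of the 13 genes of the tricarboxylic acid cycle rose and 5 fell in PD, and 2 rose and 7 fell in EES. The X-linked Idh3g, a subunit of isocitrate dehydrogenase, fell most in PD (−6.21 ± 0.29).

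Of 11 tested regulators of mitochondrial gene expression, 1 rose and 7 fell in PD, where 25.5% of all tested genes rose and 35.8% fell, and 2 rose and 7 fell in EES, where 15.8% rose and 54.9% fell. Esrra, an orphan nuclear receptor of energy metabolism, rose to 7.68, 6.59 and 7.09 RPKM in PD, against 1.26, 1.04 and 1.79 RPKM in LZ. Pprc1, a coactivator related to PGC-1, fell to 0.12, 0.144 and 0.0313 RPKM, against 5.01, 4.77 and 3.46 RPKM in LZ. Tfam, which packs and transcribes mitochondrial DNA, had 160.0, 78.6 and 179 RPKM in EES, against 2.24, 2.34 and 3.75 RPKM in RS (log2 fold change 5.60 ± 0.29, limma adjusted p = 7.84e-08). These levels are per gene and do not separate transcript forms, and overlap with other genes was not checked for these lists.

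NRF1 is a transcription factor known to bind promoters of respiratory genes, and its palindromic motif was searched in promoter windows from RefSeq (GRCm38.p6) that run from 250 bases before to 50 after the start, found for 64 of the 81 genes. It was in 5 of the 64 (7.8%), against 2.3% of tested genes and 1.1% of all genes with a window. The 4 sites that lie before the start of the gene are shown with the motif in capitals.
Ndufa11 (chr17:56717692-56717721, plus strand): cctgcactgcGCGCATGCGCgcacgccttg
Cox6a1 (chr5:115349101-115349130, minus strand): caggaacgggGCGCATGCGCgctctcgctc
Atp5g2 (chr15:102671070-102671099, minus strand): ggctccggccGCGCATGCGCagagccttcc
Atp5k (chr5:108434430-108434459, minus strand): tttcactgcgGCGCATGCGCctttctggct
The fifth is in the window of Uqcrc1. In PD Atp5k and Uqcrc1 rose, Atp5g2 fell, and Ndufa11 and Cox6a1 did not pass (0.37 ± 0.37 and 0.28 ± 0.50). Nrf1 itself was at 5.26 ± 0.306 in LZ, 1.41 ± 0.237 in PD, 0.666 ± 0.0587 in RS, 1.46 ± 0.875 in EES and 0.916 ± 0.089 in LES (RPKM, SD, n = 3). Of the other motifs, searched on both strands, AAGATGGCG of YY1 was in 10.9% of the 64, against 3.5% of tested genes, and CCGGAAG of ETS factors in 15 of the 64, against 2081 of 10391 tested genes. GGGCGG of SP factors was in 42.2%, against 61.5%, TGACGTCA (CRE) in 6.2%, against 3.7%, and CAGTTG of MYB in 10.9%, against 14.0%. These matches describe the letters of the windows and are not shown to be bound.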

How the data were processed

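RNA sequencing had been done on 17 libraries of sorted mouse germ cells. The authors deposited log2 values per gene, which equal log2(100 × RPKM + 1), and RPKM was computed back from them. The submitters' processing notes name Trim Galore, STAR and the build GRCm38 (mm10), and de novo gene models came from StringTie 1.3.4d, per the file headers. Other deposited values used were the authors' exon positions of these models. The sources used here state neither the strand setting nor the handling of reads with several matches.

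Symbols came from RefSeq (GRCm38.p6), which held 24570 of 24594 IDs. Genes at 1 RPKM or more in at least 3 of 15 libraries were tested with limma 3.58.1 (R 4.3.3) on log2(RPKM + 0.01), with 1 mean per stage, a variance trend and Benjamini-Hochberg adjustment, which understates changes of genes near that pseudocount. RS23 and PrmES, single libraries, entered no test. The script was tested on simulated data. Overlaps, shared sequence and motifs were computed with Python 3.11.15, pandas 2.3.3 and Biopython 1.88 on GENCODE M21 and RefSeq. Whole reads were recovered from the de novo table for library totals, with 100% of values in the file within 0.01 reads of a whole number. Intervals cover counting error only.

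Genes and lists were chosen with earlier results of these data known. Named are up to 3 called genes of largest change per complex, direction and comparison, X-linked genes, isoforms, complex II, core and catalytic subunits, and the highest and lowest gene of each complex. Lists of assembly factors, regulators, the tricarboxylic acid cycle, mitochondrial ribosomal proteins, left-out isoforms and markers of other cells are described by counts. Alternatives changed the filter, pseudocount, scaling, variance trend, minimum fold change, tool (voom), replicate block and libraries. One gene that this rule selects is not reported here.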

Additional observations from a re-analysis of the deposited data

How the results depend on the processing

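With median centring, 43 of the 78 genes rose in PD relative to LZ, 13 fell in RS relative to PD, 14 rose and 27 fell in EES relative to RS, and 18 rose and 30 fell in LES relative to RS. With scaling to reads in genes, 9 rose and 13 fell in PD. With quantile normalization, 9 rose and 22 fell in PD, 15 fell in RS, 7 rose in EES and 10 rose in LES relative to RS. With no minimum fold change, 16 fell in RS. With voom on recovered reads, 38 genes passed in PD relative to LZ, 10 in RS, 60 in EES, 0 in LES relative to EES and 61 in LES relative to RS. The shares of all tested genes that passed were not counted under these alternatives. Leaving out 1 library at a time gave 5 to 11 genes that fell in RS, with 11 without PD 3, and 16 to 30 that rose in PD. The direction reversed with quantile normalization for Cox4i1 (−0.074), Atp5k (−0.036) and Ndufv2 (−0.32) in PD relative to LZ, and for Ndufa1 (0.36) and Ndufs8 (0.063) in EES relative to RS. With median centring it reversed in EES for Ndufa1 (0.38), Ndufa4l2 (0.031), Ndufv1 (0.089) and Ndufs8 (0.29). The cause was not tested. Of 100 single-gene results, 60 kept their call in every alternative run. Replicate numbers did not pair the libraries, as same-numbered libraries had correlations of −0.252 to 0.242. With the replicate block 22 rose and 8 fell in PD, 3 rose and 5 fell in RS, 3 rose and 56 fell in EES, and 4 rose and 57 fell in LES relative to RS, and Cox7b2 did not pass in PD (limma adjusted p = 0.0525). With 3 libraries a stage, small changes may be missed, and no gene level can be tied to a cell number.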
